A study of Mus musculus with 6 samples.

Results

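The messages measured here were those of 43 genes that build, maintain and load the photoreceptor cilium: subunits of the intraflagellar transport (IFT) complexes, the BBSome with its assembly and recruitment factors, proteins of the transition zone and the axoneme, the tubby-like proteins, and the proteins of lipidated cargo transport. The rule that chose them used names and known roles and no measured value, although earlier results of these data were known at that time. All 43 were listed in each of the 6 libraries and all 43 passed the count minimum, of 19401 genes listed and 15537 tested. Expression was measured by RNA-seq in the retina together with the retinal pigment epithelium (RPE) of 5XFAD mice, a model of Alzheimer's disease that is hemizygous for mutant human amyloid precursor protein and mutant human presenilin 1 on the B6SJL background. As background, both transgenes of this line are driven by the neuronal Thy1 promoter. Control and treated animals alike carried the transgenes and lacked the retinal degeneration alleles rd8 of Crb1 and rd1 of Pde6b, and the groups compared held no wild type mice. The EFV-treated mice received efavirenz, an antiretroviral drug given here at a low dose as an activator of the cholesterol 24-hydroxylase CYP46A1, in the drinking water from 3 to 9 months of age at 0.08 mg/kg per the labels, while the methods of the study state a higher daily dose. Control mice are labelled untreated and, per the methods of the study, drank the polysorbate vehicle. There were 3 libraries per group. A library held a pool of 5 to 6 mice, described as male, at 9 months of age, so that the spread given below is a spread between pools.

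A rod or cone grows its light-sensing outer segment on a modified primary cilium, which is joined to the cell body by a narrow connecting cilium, the equivalent of the transition zone. The outer segment holds no ribosomes, so every opsin, transducin and phosphodiesterase molecule has to pass through this bridge. IFT-B trains with kinesin-2 carry material outward, IFT-A trains with dynein-2 carry it back, the BBSome hands membrane proteins to the returning trains, and soluble carriers bring prenylated and acylated proteins in. Inherited defects of many of these genes cause retinal dystrophy, alone or as part of Bardet-Biedl, Joubert or Senior-Loken syndrome.

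The libraries held between 23455167 and 24590278 counts, and the members had between 295 and 43149 counts each in any one library. In bulk RNA, fewer photoreceptors and less RNA per photoreceptor cannot be told apart. The rod markers summed to between 24892 and 27008 FPKM (fragments scaled to transcript length and library size), with a mean log2 deviation of -0.07 in EFV 1 and -0.05 in EFV 3 and of 0.05 in control 2 and EFV 2. The 7 lens markers summed to between 14.4 and 81.0 FPKM in 5 libraries and to 1508 FPKM in control 3. All 6 tested among them were lower in EFV-treated mice at an unadjusted p of 0.05 or less (edgeR), beside 3.04% of all genes tested. The groups overlapped for each of the 6, and no lens covariate was fitted. The mean log2 deviation of the 8 RPE markers was -0.64 in control 2 and between 0.01 and 0.37 in the other libraries, and Rpe65 and Lrat among them were higher in EFV-treated mice at an unadjusted p of 0.0437 and 0.0391 (edgeR). The 10 markers of motile cilia summed to between 15.1 and 18.4 FPKM, of which Ccdc39 made up 10.1 to 11.8 FPKM. The mean log2 deviation of the 8 tested among them ran from -0.34 in EFV 2 to 0.21 in EFV 3. Of the 43 gene spans 20 overlap another annotated gene and 11 a gene counted in these files, among them Rpgrip1 with Supt16, Mkks with Slx4ip, Ift122 with Mbd4, Tmem67 with Rbm12b2 and Arl13b with Stx19, and since the strandedness is not given in the sources used here, reads of such pairs may not be separable. In 7 members, Rpgr and Rpgrip1 included, some reads were shared out between genes by the estimate. The part of these differences in the results was tested only where a rod or RPE covariate is named.

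The cilium genes spanned a wide range of levels. Unc119 had a mean of 1464 FPKM, above 99.9% of the genes tested, and Rpgrip1l, the lowest, had 3.21 FPKM. Of the 43 members 9 were above 50 FPKM, 24 lay between 10 and 50 FPKM and 10 were below 10 FPKM. Unc119 and Tulp1 together made up 62.0% of the summed FPKM of the list. The most abundant members were 3 genes of lipidated cargo transport (Unc119, Arl3 and Pde6d), the tubby-like protein Tulp1, the kinase Mak, the GTPase Arl6 and the connecting cilium scaffold Rpgrip1. By class, the median level was 305 FPKM for the 2 tubby-like genes, 146 FPKM for lipidated cargo transport, 57.8 FPKM for the 2 axonemal genes, 37.5 FPKM for the BBSome subunits, 14.3 FPKM for IFT-A, 13.7 FPKM for IFT-B, 12.1 FPKM for the transition zone and 10.4 FPKM for BBSome assembly and recruitment. The 7 listed BBSome subunits, which work in a complex of fixed composition, ranged from 18.9 FPKM (Bbs1) to 59.4 FPKM (Bbs4). The 11 listed IFT-B subunits ranged from 9.69 FPKM (Ift88) to 49.5 FPKM (Ift20). These classes hold the listed members only, and the 12 other IFT and BBSome genes read below ran from 0.532 to 15.9 FPKM. In the order of mean level, the range over the 6 libraries overlapped that of the next lower member in 30 of 42 neighbouring pairs, so that most neighbours cannot be ranked. The first 4 places (Unc119, Tulp1, Arl3 and Pde6d) did not overlap with each other or with the fifth, Mak.

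**Figure D1:**
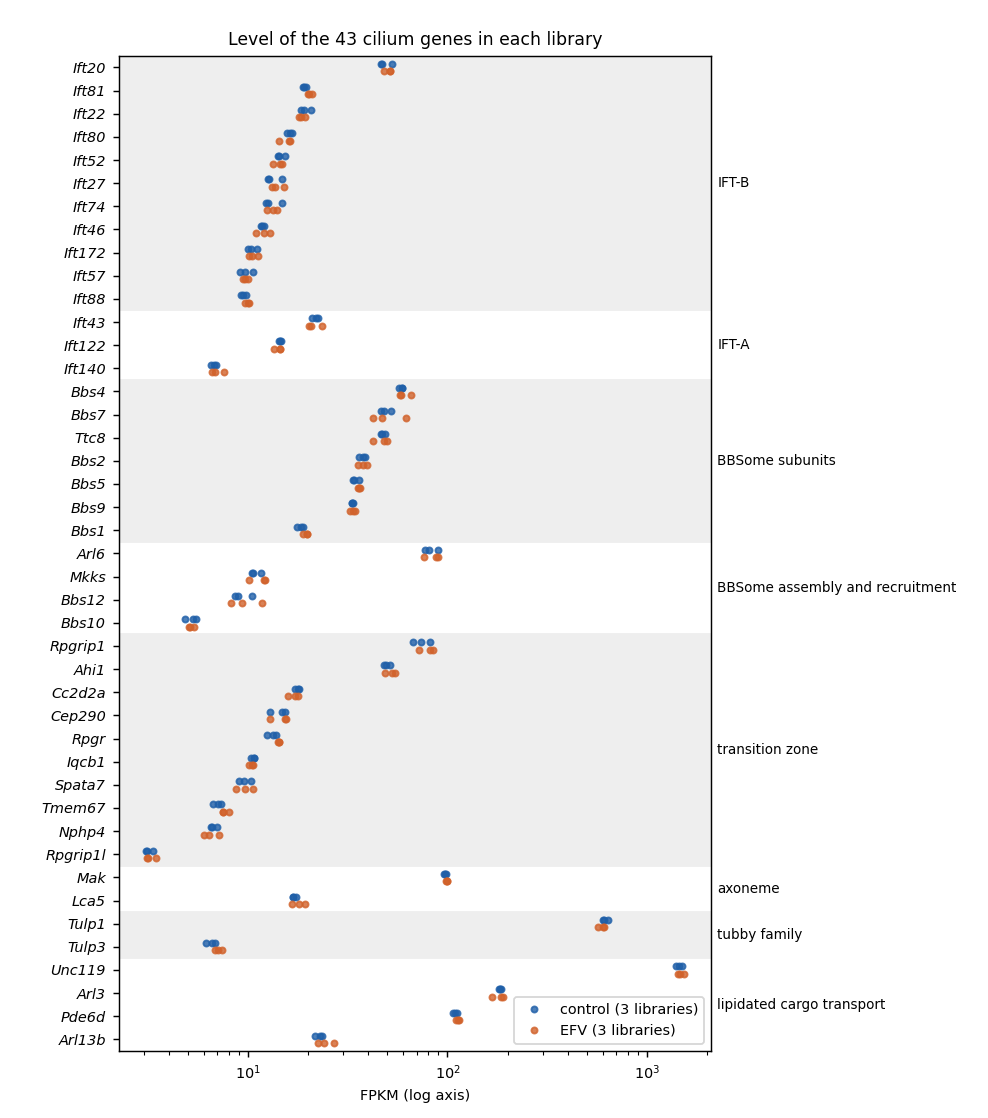
FPKM of each of the 43 genes in every library, on a log axis, by class. Each point is 1 library (blue, the 3 control libraries; orange, the 3 EFV libraries); Unc119 lies between 1405 and 1542 FPKM, Rpgrip1l between 3.06 and 3.47 FPKM, and the points of the groups overlap for most genes.

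The messages of the cilium machinery were close to the control level in EFV-treated mice. With 3 pools a group, no member passed an adjusted p of 0.05 (edgeR quasi-likelihood test, Benjamini-Hochberg over 15537 genes; the background was 0.0% of all genes), and each member had an adjusted p of 0.999. At an unadjusted p of 0.05 or less, 1 of 43 members was called, Rpgr, which was higher in EFV-treated mice; this is 2.33% of the members beside 3.04% of all genes tested (1.49% higher and 1.55% lower). The same gene was left when the fold limit in the methods of the study, 0.10 on the log2 scale, was asked for as well (3.01% of all genes). DESeq2 and limma on FPKM called 0 members, with and without adjustment. Over all genes DESeq2 called 1.74% unadjusted and 11 genes adjusted, and limma on log2(FPKM + 0.1) called 3.74% unadjusted and 0 adjusted. The sign was positive, meaning higher with EFV, in 24 members and negative in 19 (55.8% positive, against 50.5% of all genes), and the median log2 fold change was 0.01 beside 0.00 for all genes. The 3 EFV values lay all on one side of the 3 control values (in CPM, counts scaled to library size but not to length) for 2 members, Rpgr and Tmem67, both higher, or 4.65% of the members beside 8.14% of all genes tested.

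The differences were small in size as well as in number. The log2 fold changes ran from -0.08 (Cc2d2a) to 0.12 (Rpgr), and their median size was 0.05, beside 0.06 for all genes and 0.04 for the 9644 genes in the same range of counts. A log2 fold change of 0.10 or more in either direction, the fold limit in the methods, was seen in 4 members (Rpgr, Tulp3, Tmem67 and Rpgrip1, all higher), or 9.3% beside 30.8% of all genes and 13.0% of the genes in the same range of counts. The 95% interval of the log2 fold change stayed within 0.14 of 0 for 7 members, within 0.32 for 42 and within 0.58 for all 43. The exception at 0.32 was Bbs12, whose upper bound was 1.26-fold, and the lowest bound was the 0.839-fold of Bbs7.

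**Figure D2:**
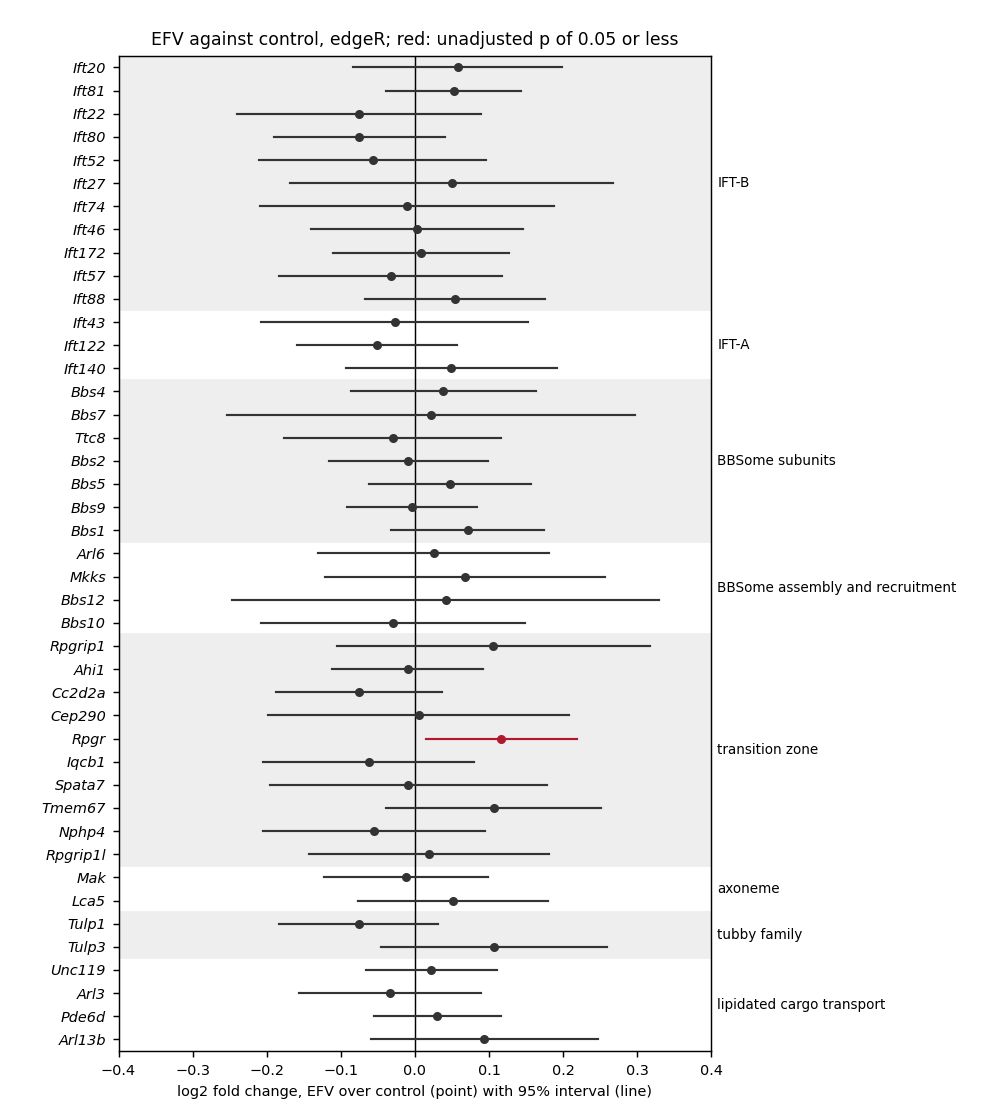
Log2 fold change of each of the 43 genes, EFV-treated over control, from edgeR (point) with its 95% interval (line), by class. Rpgr, in red, is the gene whose interval stays above 0 (0.01 to 0.22); the lines of the other 42 cross 0.

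Rpgr and Tmem67, the 2 members whose groups did not overlap in CPM, were both among the 10 transition zone genes. Over all members the share was below that of all genes tested (4.65% beside 8.14%). Of the 23 further transition zone and basal body genes read below, 1 did not overlap, Tmem237, and it was lower in EFV-treated mice. Whether the class differed from the others was not tested. The 10 transition zone genes split into 5 higher and 5 lower, around a median log2 fold change of -0.00. Rpgr (Entrez 19893; chrX:10158216-10216795, reverse strand, mm10), whose product is a regulator of traffic through the connecting cilium and the main gene of X-linked retinitis pigmentosa, had 13.3, 13.8 and 12.4 FPKM in control 1, 2 and 3 and 14.3, 14.3 and 14.1 FPKM in EFV 1, 2 and 3. All 3 EFV values were above all 3 control values, and the lowest control value was that of control 3. The fold change was 1.08 (log2 fold change 0.12, SE 0.05, 95% interval 0.01 to 0.22, edgeR unadjusted p = 0.0296, adjusted p = 0.999). Over 19 other settings the value stayed between 0.08 and 0.17 and positive, with an adjusted p between 0.000145 (Poisson model) and 1.0, and the unadjusted p was 0.05 or less in 10 of them. The edgeR unadjusted p was 0.0638 without control 1, 0.119 without control 3, 0.0780 without EFV 1 and 0.0534 without EFV 3. It was 0.0686 with the rod markers as a covariate, and DESeq2 gave an unadjusted p of 0.0599.

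Rpgrip1, which anchors RPGR in the connecting cilium, had 73.5, 81.9 and 67.4 FPKM in control 1, 2 and 3 and 72.01, 84.9 and 81.3 FPKM in EFV 1, 2 and 3. Its lowest value was in control 3 and its highest in EFV 2, and the groups overlapped (log2 fold change 0.11, SE 0.09, edgeR unadjusted p = 0.286). Ahi1, a gene of Joubert syndrome, had 51.7, 49.2 and 48.2 FPKM in control 1, 2 and 3 and 54.4, 48.8 and 52.8 FPKM in EFV 1, 2 and 3. The groups overlapped here too, and the sign was not the same on both scales: the counts gave a log2 fold change of -0.01, and log2(FPKM + 0.1) gave 0.06. Tmem67 (meckelin, a membrane receptor of the transition zone) had 6.69, 7.10 and 7.28 FPKM in control 1, 2 and 3 and 7.99, 7.45 and 7.51 FPKM in EFV 1, 2 and 3. All 3 of its EFV values lay above the control values, with 1.08-fold higher expression (log2 fold change 0.11, SE 0.06, edgeR unadjusted p = 0.132). Rpgrip1l, the least abundant member, had 3.11, 3.33 and 3.06 FPKM in control 1, 2 and 3 and 3.47, 3.16 and 3.11 FPKM in EFV 1, 2 and 3, with overlapping groups (log2 fold change 0.02, SE 0.07). The other members of the class (Cep290, Nphp4, Iqcb1, Spata7 and Cc2d2a) had unadjusted p-values between 0.159 and 0.957. The mean levels of Cep290, a frequent gene of Leber congenital amaurosis, were 14.4 ± 1.31 FPKM (SD, n = 3) in control and 14.6 ± 1.49 FPKM (SD, n = 3) in EFV-treated mice.

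The IFT trains showed no called member. Of the 11 IFT-B genes 6 were higher and 5 lower (median log2 fold change 0.00), and of the 3 IFT-A genes 1 was higher and 2 lower (median -0.03). Ift20, a small IFT-B subunit that also works at the Golgi apparatus, had 52.4, 47.0 and 46.3 FPKM in control 1, 2 and 3 and 48.3, 51.8 and 51.2 FPKM in EFV 1, 2 and 3. Control 1 was the highest library, and the other control values lay below the EFV values (log2 fold change 0.06, SE 0.06, edgeR unadjusted p = 0.382). Ift81, which binds tubulin together with IFT74, had 19.1, 18.9 and 19.5 FPKM in control 1, 2 and 3 and 20.9, 20.3 and 19.9 FPKM in EFV 1, 2 and 3. On the FPKM scale its EFV values all lay above the control values, whereas in CPM the groups overlapped (log2 fold change 0.05, SE 0.04, edgeR unadjusted p = 0.227). The IFT-A subunit Ift43 had 20.8, 22.3 and 21.8 FPKM in control 1, 2 and 3 and 20.2, 20.8 and 23.5 FPKM in EFV 1, 2 and 3, and Ift122, a core subunit of the same complex, had 14.4, 14.5 and 14.7 FPKM in control 1, 2 and 3 and 14.5, 14.4 and 13.6 FPKM in EFV 1, 2 and 3. The groups overlapped for both, and 5 of the 6 values of Ift122 lay between 14.4 and 14.7 FPKM. Ift88, whose loss stops the assembly of cilia, had mean levels of 9.46 ± 0.312 FPKM (SD, n = 3) in control and 9.93 ± 0.226 FPKM (SD, n = 3) in EFV-treated mice. The IFT gene with the smallest unadjusted p was Ift80, an IFT-B subunit, which was lower in EFV-treated mice without passing (log2 fold change -0.08, SE 0.05, edgeR unadjusted p = 0.174). With the rod markers as a covariate it was the 1 member called at the unadjusted threshold, where 2.6% of all genes were called.

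No gene of the BBSome was called. The 7 subunits had 4 higher and 3 lower (median log2 fold change 0.02) and the 4 assembly and recruitment genes 3 higher and 1 lower (median 0.03). Bbs4, the subunit with the highest level, had 58.9, 57.2 and 58.8 FPKM in control 1, 2 and 3 and 65.8, 57.7 and 58.2 FPKM in EFV 1, 2 and 3. EFV 1 stood above the other 5 libraries, which lay between 57.2 and 58.9 FPKM (log2 fold change 0.04, SE 0.06). Bbs7 (Entrez 71492; chr3:36573142-36613492, reverse strand, mm10), a subunit of the BBSome core, had 48.0, 52.3 and 46.6 FPKM in control 1, 2 and 3 and 61.9, 42.3 and 46.8 FPKM in EFV 1, 2 and 3. Both the highest and the lowest value were in the EFV group, and the coefficient of variation over the 6 libraries was 13.7% (log2 fold change 0.02, SE 0.12). Without EFV 1 its log2 fold change was -0.15, and without EFV 2 it was 0.13. Arl6, the GTPase that brings the BBSome to the membrane, had 89.1, 80.7 and 76.9 FPKM in control 1, 2 and 3 and 89.7, 76.3 and 87.8 FPKM in EFV 1, 2 and 3. Mkks, which belongs to the chaperonin-like proteins that assemble the complex, had 11.6, 10.5 and 10.6 FPKM in control 1, 2 and 3 and 12.1, 10.1 and 11.97 FPKM in EFV 1, 2 and 3. EFV 2 was the lowest library for both and EFV 1 the highest, with control 1 close to it (log2 fold change 0.07, SE 0.08 for Mkks and log2 fold change 0.03, SE 0.07 for Arl6).

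Of the axonemal pair, Mak, a kinase that restrains the length of the axoneme, had the smallest spread of FPKM over the 6 libraries, a coefficient of variation of 1.5%, although in log2 CPM its SD within groups of 0.0523 was above the 0.0224 of Pde6d. It had 97.2, 98.6 and 95.7 FPKM in control 1, 2 and 3 and 98.6, 99.8 and 99.0 FPKM in EFV 1, 2 and 3. The EFV values lay above the control values in FPKM, but narrowly (98.62 in EFV 1 against 98.58 in control 2). In CPM the groups overlapped, and the counts gave a negative sign (log2 fold change -0.01, SE 0.05, edgeR unadjusted p = 0.808). Bbs1 was also apart in FPKM and not in CPM, with a highest control value of 18.80 and a lowest EFV value of 18.95 FPKM. The share of all genes apart in FPKM was not counted. Lca5 (lebercilin, an axonemal partner of IFT) had 16.9, 16.8 and 17.4 FPKM in control 1, 2 and 3 and 19.4, 18.0 and 16.6 FPKM in EFV 1, 2 and 3. EFV 1 was its highest library and EFV 3 its lowest (log2 fold change 0.05, SE 0.06).

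The tubby-like proteins carry membrane receptors into the cilium. Tulp1, the photoreceptor member, had 603, 640.2 and 606 FPKM in control 1, 2 and 3 and 566, 608 and 601 FPKM in EFV 1, 2 and 3. EFV 1 was the lowest and control 2 the highest library, as for the summed rod markers of control 2, and the difference did not pass (log2 fold change -0.08, SE 0.05, edgeR unadjusted p = 0.144). Tulp3, the broadly expressed member, had 6.15, 6.58 and 6.84 FPKM in control 1, 2 and 3 and 6.83, 7.05 and 7.39 FPKM in EFV 1, 2 and 3. Only the EFV 1 value reached into the control range (log2 fold change 0.11, SE 0.07, edgeR unadjusted p = 0.147).

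Among the genes of lipidated cargo transport, Unc119, which extracts acylated transducin from membranes, had 1442, 1405 and 1493 FPKM in control 1, 2 and 3 and 1466, 1437 and 1542 FPKM in EFV 1, 2 and 3. The groups overlapped and the 95% interval of the fold change was 0.955 to 1.08. Arl3, the GTPase that releases cargo from UNC119 and PDE6D inside the cilium, had 184, 181 and 185 FPKM in control 1, 2 and 3 and 167, 187 and 189.6 FPKM in EFV 1, 2 and 3. EFV 1 was its lowest library and the other 5 lay between 181 and 189.6 FPKM (log2 fold change -0.03, SE 0.05). Arl13b, the exchange factor that loads ARL3 with GTP, had 23.5, 21.6 and 22.98 FPKM in control 1, 2 and 3 and 27.1, 24.0 and 22.3 FPKM in EFV 1, 2 and 3. EFV 1 was the highest and control 2 the lowest, and the difference did not pass (log2 fold change 0.09, SE 0.07, edgeR unadjusted p = 0.201). Without EFV 3 this gene was called at the unadjusted threshold (log2 fold change 0.16, edgeR unadjusted p = 0.0215), and without EFV 1 its log2 fold change was 0.02. Pde6d, the carrier of prenylated rhodopsin kinase and phosphodiesterase subunits, had mean levels of 109 ± 2.89 FPKM (SD, n = 3) in control and 112 ± 2.37 FPKM (SD, n = 3) in EFV-treated mice. The SE of its log2 fold change, 0.04, was the smallest of the 43.

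The spread between pools was small for most members and uneven between them. The median coefficient of variation of a member over all 6 libraries was 5.04%, beside 7.06% for all genes tested, and 2 members, Bbs7 and Bbs12, were above 10%. EFV 1 was the highest library for 15 of the 43 members and control 3 for 0, beside 18.7% and 16.3% of all genes tested. The mean log2 deviation of the 4 BBSome assembly and recruitment genes was 0.10, -0.04 and -0.10 in control 1, 2 and 3 and 0.14, -0.12 and 0.02 in EFV 1, 2 and 3. That of the rod markers in the same libraries was -0.01, 0.05 and 0.02 in control and -0.07, 0.05 and -0.05 in EFV, with EFV 1 the lowest. With the rod markers as a covariate the log2 fold changes of Arl6, Mkks and Bbs7 became -0.06, -0.04 and -0.09 and none was called. In the transition zone, the log2 deviations of Rpgrip1 were -0.05, 0.11 and -0.22 in control 1, 2 and 3 and -0.10, 0.19 and 0.07 in EFV 1, 2 and 3, and those of Cep290 were 0.04, 0.12 and -0.16 in control 1, 2 and 3 and 0.07, 0.12 and -0.19 in EFV 1, 2 and 3.

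**Figure D3:**
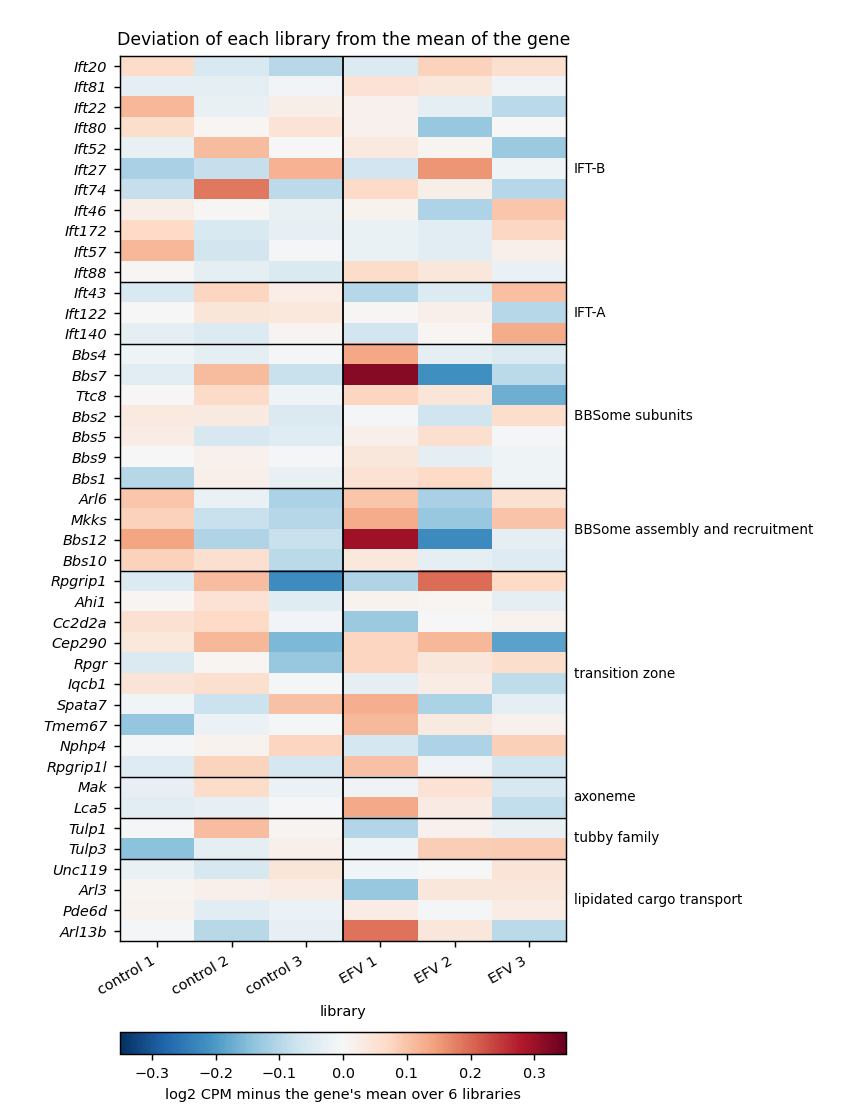
Log2 CPM of each gene in each library minus the mean of the gene over the 6 libraries, by class, with control to the left of the vertical line and EFV to the right (red, above the mean; blue, below). The highest cells are Bbs7 and Bbs12 in EFV 1 (0.32 and 0.30), and the lowest include both genes in EFV 2 and Rpgrip1 in control 3 (each -0.22).

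The deposited tables also hold a mean transcript length per gene and library, weighted by the abundance of each isoform, which moves when the use of isoforms moves; this readout was taken up after the files had been seen. It varied between libraries in 29 members, by a median range of 2.10% beside 1.62% for all genes with a varying length. The groups did not overlap in 3 of the 29 members, beside 9.21% of the 7929 genes with a varying length. Ift81 was shorter in EFV-treated mice, with 3536, 3508 and 3506 bases in control 1, 2 and 3 and 3447, 3472 and 3476 bases in EFV 1, 2 and 3, a mean difference of -1.47%. It was the 1 member of the 3 with a difference of at least 1%, and 4.07% of the 7929 genes had groups apart by as much. In Ift74 the difference was 0.363% and in Ttc8 -0.0201%. The exact two-sided permutation test gave p = 0.1 for each of the 3, the smallest value that 3 against 3 can give. The widest range was that of Ahi1 (9.94%), with 4145, 4403 and 4273 bases in control 1, 2 and 3 and 3986, 4360.1 and 3998 bases in EFV 1, 2 and 3. EFV 1 and EFV 3 had its shortest means and control 2 its longest, and EFV 2 lay within the control range. For Rpgr, a gene with 10 isoforms in these tables, the lengths were 6226, 6143 and 6297 bases in control 1, 2 and 3 and 6396, 6142 and 6414 bases in EFV 1, 2 and 3, with overlapping groups. Isoform shares are estimates from short reads, and their own error is not in the tables.

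**Figure D4:**
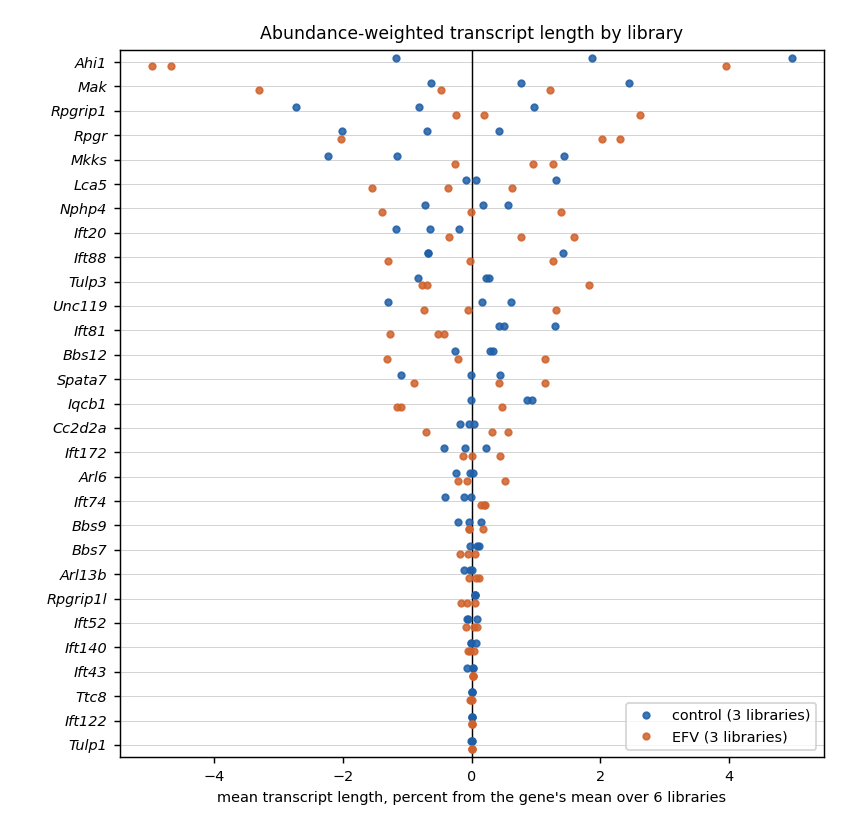
Abundance-weighted mean transcript length of the 29 genes in which it varied, as the percent difference from the gene's mean over 6 libraries. Each point is 1 library (blue, control; orange, EFV); Ift81 and Ift74 are separated between the groups, Ttc8 is as well but by less than the size of a point, and Ahi1 has the widest range.

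The regulatory sequence of these genes has one feature to set beside their levels. The X-box, bound by factors of the RFX family, was searched for on either strand. It was written as the letters GTNNCC and GNAAC with 2 or 3 free bases between them. The search used RefSeq promoters (250 bases before to 50 bases after each transcript start, GRCm38.p6, the assembly of mm10). These were matched for 39 of the 43 members, all but Ift81, Ift80, Ift122 and Tmem67. The X-box was found for 8 of 39 members (20.5%), beside 4.22% of the 27025 genes with a promoter and 11 of 53 other cilium genes (20.8%). By class these were 3 of 7 BBSome subunits, 3 of 9 IFT-B genes and 2 of 9 transition zone genes, and none in the other classes. Counted by promoter, the shares were 16.7% for the members and 3.68% for all promoters. In Ahi1 and Nphp4 other annotated promoters held no match, and the positions below are counted from the start of the promoter with the match. The matches are printed on the strand of the gene, because they are the sequence that members of different complexes have in common; a match is a description of letters and not evidence of binding.
Ahi1: GTTACCTAGGCAAC
Bbs1: GTTGCCAAGGCGAC
Bbs4: GTCGCCCGGGAAAC
Bbs7: GTTGCCTTGGAAAC
Ift22, first site: GTTTCCTGGGCTAC
Ift22, second site: GTCGCCGTGGAAAC
Ift57, first site: GTTGCCGTGGTGAC
Ift57, second site: GTTGCCTGGTAAC
Ift74: GTTGCTAGGATAC
Nphp4: GTCTCCTAGGTAAC

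The match begins 121 bases before the transcript start in Bbs7, 87 and 60 bases before it in Ift57, 63 and 33 bases before it in Ift22, 231 bases before it in Nphp4 and 5 bases before it in Ift74, whereas in Bbs1, Bbs4 and Ahi1 it begins 1, 23 and 21 bases after the first transcribed base. The sites of Ahi1, Bbs7 and the second one of Ift57 read as a match on both strands, as an inverted repeat does, and those of Bbs1 and Ift74 and the first ones of Ift22 and Ift57 match on the opposite strand alone. The promoters of Bbs7 (chr3:36613340-36613639, reverse strand) and Ift57 (chr16:49699044-49699343, forward strand) are printed whole as examples from the BBSome and the IFT-B complex, 5′ to 3′, with the X-box in capitals.
Bbs7: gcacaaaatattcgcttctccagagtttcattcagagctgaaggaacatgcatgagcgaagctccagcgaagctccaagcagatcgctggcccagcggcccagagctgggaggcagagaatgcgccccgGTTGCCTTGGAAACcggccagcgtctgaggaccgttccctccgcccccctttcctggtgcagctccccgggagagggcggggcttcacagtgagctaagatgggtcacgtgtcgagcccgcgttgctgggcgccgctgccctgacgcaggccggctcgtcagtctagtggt
Ift57: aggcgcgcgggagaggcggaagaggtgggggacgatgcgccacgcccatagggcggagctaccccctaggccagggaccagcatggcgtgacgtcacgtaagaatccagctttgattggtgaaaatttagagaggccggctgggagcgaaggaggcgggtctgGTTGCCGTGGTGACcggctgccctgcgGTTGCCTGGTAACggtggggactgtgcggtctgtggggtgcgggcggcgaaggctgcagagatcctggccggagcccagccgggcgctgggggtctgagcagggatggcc

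The letters TAATCC, the core bound by the photoreceptor factors CRX and OTX2, were found on either strand for 4 of 39 members (10.3%), beside 8.14% of all genes. These were Bbs1, Mak, Rpgrip1 and Unc119. Mak, Rpgrip1 and Unc119 are among the 9 members above 50 FPKM. The others above it, Tulp1, Arl3, Pde6d, Arl6, Bbs4 and Ahi1, held no match. Counted by promoter, the shares were 8.33% for the members and 7.06% for all promoters. In Mak another annotated promoter held no match. The promoter of Rpgrip1 (chr14:52110653-52110952, forward strand) and that of one of the 3 annotated starts of Unc119 (chr11:78345334-78345633, forward strand) are given because they belong to the most abundant transition zone gene and the most abundant member. The capitals mark GGATTA, the same letters read on the opposite strand.
Rpgrip1: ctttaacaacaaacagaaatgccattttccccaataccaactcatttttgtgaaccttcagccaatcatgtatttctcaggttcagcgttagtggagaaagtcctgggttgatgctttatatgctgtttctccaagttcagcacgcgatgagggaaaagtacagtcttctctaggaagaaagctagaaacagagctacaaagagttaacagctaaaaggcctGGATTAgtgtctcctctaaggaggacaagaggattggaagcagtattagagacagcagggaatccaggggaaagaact
Unc119: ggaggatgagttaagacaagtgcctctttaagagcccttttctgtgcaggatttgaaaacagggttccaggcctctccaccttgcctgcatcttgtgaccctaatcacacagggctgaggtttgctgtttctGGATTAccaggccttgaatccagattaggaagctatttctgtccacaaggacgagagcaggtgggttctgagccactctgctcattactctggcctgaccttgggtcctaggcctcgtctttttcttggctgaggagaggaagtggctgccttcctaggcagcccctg

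Further genes of the same machinery and the RFX factors were read for comparison. Of these 61 further cilium genes and RFX factors 60 were tested. EFV-treated pools were above control in 35 of them and below in 25, and the median log2 fold change was 0.01. The unadjusted threshold of 0.05 called 1, Tmem237, and 0 passed an adjusted p of 0.05 (edgeR; 3.04% and 0.0% of all genes). DESeq2 called 1 and limma 0 at the unadjusted threshold, and edgeR called 0 without control 1 or EFV 1 and 2 without control 2 or EFV 3. Tmem237, a membrane protein of the transition zone, had 62.0, 55.3 and 56.0 FPKM in control 1, 2 and 3 and 51.8, 54.6 and 52.1 FPKM in EFV 1, 2 and 3. All 3 EFV values lay below the control values (log2 fold change -0.14, SE 0.05, edgeR unadjusted p = 0.0222). In CPM 2 of the 60 did not overlap between the groups (3.33%, beside 8.14% of all genes tested), Tmem237 and Dync2h1. Dync2h1, the heavy chain of the retrograde dynein-2 motor, was at 4.08 ± 0.140 FPKM (SD, n = 3) in control and 3.88 ± 0.0874 FPKM (SD, n = 3) in EFV-treated mice (log2 fold change -0.07, SE 0.04, edgeR unadjusted p = 0.163).

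By list, no further gene was called. Of 12 other IFT and BBSome genes 9 were higher and 3 lower, with Bbip1 and Hspb11 the most abundant (log2 fold changes 0.03 and -0.02). Of 9 motor genes 5 were higher and 4 lower, and the kinesin-2 accessory subunit Kifap3 had 39.0 ± 0.722 FPKM (SD, n = 3) in control and 41.0 ± 1.35 FPKM (SD, n = 3) in EFV-treated mice. The other abundant motor gene, Kif3c, had a log2 fold change of 0.01. Of 23 further transition zone and basal body genes 11 were higher and 12 lower, among them Fam161a at 74.9 ± 0.188 FPKM (SD, n = 3) in control and 74.5 ± 2.84 FPKM (SD, n = 3) in EFV-treated mice. Of 11 photoreceptor axoneme and cargo genes 6 were higher and 5 lower. Cdhr1, a cadherin at the base of the outer segment, had 342 ± 14.9 FPKM (SD, n = 3) in control and 343 ± 29.0 FPKM (SD, n = 3) in EFV-treated mice, and Rp1, which bundles the microtubules of the axoneme, had 234 ± 19.9 FPKM (SD, n = 3) in control and 240.2 ± 15.2 FPKM (SD, n = 3) in EFV-treated mice. Of the 6 RFX factors Rfx4 was below the count minimum, and of the 5 tested 4 were higher and 1 lower, with Rfx1 at 16.4 ± 0.736 FPKM (SD, n = 3) in control and 16.8 ± 0.964 FPKM (SD, n = 3) in EFV-treated mice and Rfx5 at 9.90 ± 0.650 FPKM (SD, n = 3) in control and 9.64 ± 0.142 FPKM (SD, n = 3) in EFV-treated mice.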

How the data were processed

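RNA of retina plus RPE was measured in 6 pools, 3 control and 3 EFV-treated. The authors made an expected count and an FPKM value per gene with RSEM 1.2.12 after alignment with Bowtie2 2.2.5 to mm10 (HISAT2 2.0.4 is also named in the submitters' processing notes), and deposited them, with a mean transcript length, without pooling. The annotation release and the strandedness are not given in the sources used here. The deposited expected counts were rounded to whole numbers, and the 15537 genes that reached 10 counts in 3 or more libraries entered edgeR 4.0.16 under R 4.3.3 (quasi-likelihood F-test; TMM scaling with factors of 0.984 to 1.01, biological coefficient of variation 0.0983), two-sided, with Benjamini-Hochberg adjustment over all genes. It takes the place of the Poisson threshold in the methods of the study. The alternatives were a Poisson model, DESeq2 1.42.0, and limma 3.58.1 on log2(FPKM + 0.1) or log2(FPKM + 1). Further ones were 3 other scalings, 2 other filters, a replicate block, rod and RPE covariates, and leaving out each library in turn. The Poisson model is not the exact test of the study and called more genes than the study reported. The study's list of changed genes names none of the members, and it names Tmem237 among the other cilium genes. The edgeR test was checked on simulated data. Levels between genes were compared in FPKM only. Log2 fold changes are EFV-treated over control. Except in the Poisson model, p-values weigh the difference against the spread between pools, with counting error included. No pair of libraries was a duplicate (their chi-square over genes was 5.47 to 13.7 times its degrees of freedom). Library totals were at least 23455167 counts, and counting error weighs most on the members with the fewest counts (295 at the lowest). The promoters came from RefSeq, GRCm38.p6, and gene positions were matched by Entrez identifier for 43 of 43 members.

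The members and lists were chosen with earlier results of these data known. Values in every library are given for the 2 most abundant members of each class, each member with an unadjusted p of 0.05 or less, the 5 with the largest change, those whose groups do not overlap, and the highest and lowest by level, and the other cilium genes named are those called, with values in every library, and the 2 most abundant of each list. Cc2d2a, Cep290, Iqcb1, Nphp4, Spata7, Ift22, Ift57, Ift74, Ift80, Ift88, Pde6d, Ttc8, Bbs1, Bbs9, Bbs12, Rfx4 and Dync2h1 were named outside this rule, after their values had been seen.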

Additional observations from a re-analysis of the deposited data

How the results depend on the processing

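No adjusted call on a member appeared in any of the 19 alternatives except the Poisson model. That model has no term for differences among pools and is not the exact test of the study. It called 7 members at an adjusted p of 0.05 and 11 unadjusted, beside 13.1% and 25.1% of all genes. At the unadjusted threshold the count of members, 1 in edgeR, was 0 in DESeq2 and in the 3 limma settings on FPKM, and 0 to 1 with 1 library left out. It was 0 without control 1, control 3 or EFV 1. Without EFV 3 the 1 called gene was Arl13b, and with the rod markers as a covariate it was Ift80. Among the other cilium genes the count of 1 became 0 in the 3 limma settings, 12 in the Poisson model and 3 with the RPE markers as a covariate, with 0 to 2 when 1 library was left out. The count of members whose groups do not overlap was 2, 4 with scaling by total counts (7.93% of all genes), and 5 to 9 with 1 library left out (11.6% to 20.9% of the members, beside 15.9% to 19.0% of all genes), where fewer libraries overlap less often by construction. The median log2 fold change of the members, 0.01, was 0.0236 with total counts, 0.0294 by limma with a pseudocount of 0.1, filtered or not, 0.0270 by limma with a pseudocount of 1, 0.0281 with the RPE covariate, and -0.00898 to 0.0277 with 1 library left out, negative without control 3 or EFV 1. The count of members whose transcript length does not overlap, 3, was 4 to 7 with 1 library left out (13.8% to 24.1% of those varying, beside 17.6% to 21.5% of all such genes).

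The sign held in every setting for 18 of the 43 members. Among the 20 members named by rule it turned in 32 values of 11 members. For Mak, at -0.01, it was 0.00318 with total counts, 0.0294 or 0.0291 by limma with a pseudocount of 0.1 (filtered or not) or 1, 0.0274 with the rod and 0.0366 with the RPE covariate. For Ahi1, at -0.01, it was 0.00581 with total counts, 0.0629 or 0.0618 in the same limma settings, 0.000133 with the rod and 0.0304 with the RPE covariate. Unc119 was -0.0191 with the RPE covariate, and Arl6, Bbs7 and Mkks were -0.0583, -0.0930 and -0.0422 with the rod covariate. With 1 library left out the ranges that crossed 0 were Unc119 -0.00138 to 0.0493, Arl3 -0.0635 to 0.0217, Mak -0.0423 to 0.0163, Arl6 -0.0235 to 0.0834, Bbs4 -0.0231 to 0.0707, Ahi1 -0.0331 to 0.0114, Bbs7 -0.153 to 0.125, Ift43 -0.0906 to 0.0154, Lca5 -0.00432 to 0.105 and Rpgrip1l -0.0286 to 0.0629. The cause of these turns was not tested.

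The labels number the libraries 1 to 3 in both groups, and the deviations of same-numbered libraries correlated at 0.125, 0.0832 and 0.0992, so the numbers were not taken as pairs, although each library correlated best with its own number. With the replicate block 1 member was called at the unadjusted threshold (Rpgr, log2 fold change 0.12, edgeR unadjusted p = 0.0364) and 0 adjusted, and the count over all genes was 520 in place of 472.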

Other observations

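Bbs7 and Bbs12, the members that varied most between libraries, lie on the same chromosome, which was noticed after their values had been seen. Bbs12, a chaperonin-like factor of BBSome assembly (chr3:37312547-37321450, forward strand, mm10), had 10.5, 8.64 and 8.92 FPKM in control 1, 2 and 3 and 11.8, 8.19 and 9.30 FPKM in EFV 1, 2 and 3, and like Bbs7 it was highest in EFV 1 and lowest in EFV 2. The gene spans are 699055 bases apart. Of 18 other genes tested within 1000000 bases on either side, 9 were highest in EFV 1 (18.7% of all genes tested), 4 were lowest in EFV 2 (15.3% of all genes tested) and 2, Dcun1d1 and Ccna2, were both (3.21% of all genes tested). In Ccna2, the gene next to Bbs7, the log2 deviation was 0.56 in EFV 1 and -0.42 in EFV 2. Elsewhere in the genome Arl6, Bbs9, Mkks and Spata7 had the same highest and lowest library. In all 6 of the 43 members shared this order, beside 3.21% of all genes tested, and 5 of the 6 were BBSome genes. In Arl6 the order rested on near ties. Its log2 deviation was 0.0962 in EFV 1 and 0.0958 in control 1, and -0.1123 in EFV 2 and -0.1111 in control 3. The order was picked from these same data, so the counts are a description and not a test of a class. The cause of the order was not tested.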
